A study of Mus musculus with 2 samples.

Results

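Glucocorticoid-induced target genes were examined in polyadenylated RNA of the mouse adrenal gland. The set holds 10 genes that are well known to be switched on by the glucocorticoid receptor, picked by name from the 43346 Ensembl genes of the deposited tables: Fkbp5, Tsc22d3, Sgk1, Zbtb16, Klf9, Mt1, Mt2, Hif3a, Pdk4 and Cdkn1a. All 10 were found in both gene tables. The tissue came from a C57BL/6J mouse, an adult female of 10 weeks, and the labels name no treatment. It was 1 biological sample, sequenced as a first and a second technical library (replicate 1 and replicate 2 in what follows), the second of them at a later date per the labels. A mean ± SD over n = 2 therefore covers technical spread only. There is no group without glucocorticoid, no second animal and no time course, so the values describe levels in this gland and differences between its libraries, not induction.

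The adrenal cortex secretes corticosterone, the main glucocorticoid of the mouse. Inside cells the hormone binds the glucocorticoid receptor, which is held ready by heat shock proteins and then moves to the nucleus, where it binds DNA at short palindromic response elements and raises transcription of target genes. Several of the targets damp the hormone's own action or adapt metabolism to fasting and stress.

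The libraries held 28267651 and 17376660 rounded expected counts (estimated fragments per gene). Mitochondrial genes and their nuclear copies took 53.1% of these counts in replicate 1 and 15.3% in replicate 2, and 82.5% and 38.4% of all TPM (transcript abundance per length, with the same sum in every library). Nuclear genes kept 13260900 and 14716667 counts. The ratio of the libraries also moved with base composition: among tested genes the median log2 ratio of replicate 2 to replicate 1 was -2.14 where the transcripts' GC content was under 40%, 0.15 at 48 to 52% and 3.90 above 56%. The defining cortex genes Star, Cyp11a1, Cyp11b1, Hsd3b1, Nr5a1 and Mc2r summed to 41203 and 43085 TPM after rescaling over nuclear genes. Hsd3b1, Star and Cyp11b1 were the highest of them in both libraries, and Nr5a1 was at 37.8 and 621 TPM. On counts scaled between the libraries Cyp11a1 and Nr5a1 were higher in replicate 2 (ratios of 6.61 and 16.3). Mc2r was lower (0.397), and the others stayed within 2-fold. With the GC trend removed only Cyp11a1 was past 2-fold.

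The sequences below belong to the members on which the results turn. Mt1 and Mt2 encode metallothioneins, small cysteine-rich proteins that bind zinc and copper, and these genes differed most between the libraries on scaled counts before GC correction. Their coding sequences (GENCODE M21, GRCm38, stop codon not included) lie on the plus strand of chromosome 8, at chr8:94179311-94180190 for Mt1 and chr8:94172848-94173424 for Mt2, in 3 coding exons each. Capitals mark the positions at which the 2 sequences differ.
Mt1: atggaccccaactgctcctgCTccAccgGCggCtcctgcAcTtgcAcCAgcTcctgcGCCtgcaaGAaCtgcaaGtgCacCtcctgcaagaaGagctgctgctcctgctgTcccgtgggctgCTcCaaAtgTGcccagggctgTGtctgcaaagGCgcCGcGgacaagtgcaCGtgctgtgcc
Mt2: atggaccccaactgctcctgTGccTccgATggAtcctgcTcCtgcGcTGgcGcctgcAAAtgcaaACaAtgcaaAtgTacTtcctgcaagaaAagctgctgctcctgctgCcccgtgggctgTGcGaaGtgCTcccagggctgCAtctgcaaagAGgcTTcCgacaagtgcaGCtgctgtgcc
Both run to 183 bases and are the same at 145 positions, an identity of 79.2%. Each holds 61 codons, of which 20 are TGC or TGT, the codons for cysteine. The coding GC content was 63.9% for Mt1 and 59.0% for Mt2. No other annotated transcript matched a transcript of any of the 10 members at 95% identity over at least 50% of its length. No exon of a member overlapped an exon of another gene of the deposited tables.

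The 250 bases before the RefSeq starts of both metallothionein genes (GRCm38.p6, plus strand) are shown, chr8:94178839-94179088 for Mt1 and chr8:94172368-94172617 for Mt2. The part of these stretches in the difference between the libraries was not tested. Capitals mark the core of the metal response element, searched as TGCACNC or TGCGCNC on both strands, and in Mt1 also a relaxed glucocorticoid response element, searched as GNACA and its reverse complement TGTNC with 3 bases between them. The last 7 bases of the Mt1 stretch lie in the first exon of Mt1-201, and the Mt2 stretch holds no exon.
Mt1: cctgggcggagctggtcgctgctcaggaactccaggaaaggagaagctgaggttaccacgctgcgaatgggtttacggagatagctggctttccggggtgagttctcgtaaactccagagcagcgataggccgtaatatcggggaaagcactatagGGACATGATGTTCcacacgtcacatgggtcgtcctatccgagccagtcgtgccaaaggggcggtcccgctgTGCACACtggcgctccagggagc
Mt2: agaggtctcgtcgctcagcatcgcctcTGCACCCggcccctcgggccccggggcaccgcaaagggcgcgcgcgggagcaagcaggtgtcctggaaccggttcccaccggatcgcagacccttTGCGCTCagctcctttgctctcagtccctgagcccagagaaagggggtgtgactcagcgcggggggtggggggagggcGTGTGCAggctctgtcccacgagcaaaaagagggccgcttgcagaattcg
The printed stretch held 1 metal response core in Mt1 and 3 in Mt2. In the full windows, from 250 bases before to 50 after the start, there were 3 and 4, and 25.7% of all 32851 RefSeq windows hold at least 1. The window of Hif3a and 1 window of Sgk1 also held 1 core each. The relaxed glucocorticoid element of Mt1 lies at chr8:94178995-94179007, and 0.475% of all windows hold that pattern.

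A full palindromic glucocorticoid response element, searched as AGAACA and its reverse complement TGTTCT with 3 bases between them, was found in 1 of the 17 windows of the 9 members with an entry, at Sgk1. Only 3 of the 32851 windows, 0.00913%, hold it, and it contains the relaxed pattern within it. The site with 50 bases on either side is shown with the element in capitals (GRCm38.p6, plus strand, chr10:21993651-21993765).
Sgk1: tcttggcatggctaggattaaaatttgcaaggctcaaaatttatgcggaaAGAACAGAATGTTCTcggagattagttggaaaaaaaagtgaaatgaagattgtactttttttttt
The element begins 189 bases before the start of the transcript Sgk1-202 and 965 bases before that of Sgk1-201. The stretch is intronic in 5 of the 13 deposited Sgk1 transcripts, among them Sgk1-213, and holds no exon of any of them. These matches are letters in a window and were not tested for binding.

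In a bulk sample a low level from fewer cells of a type and from less RNA per cell cannot be told apart. All 10 members were detected, but at levels that differed by up to 70.6 times within replicate 1 and 124 times within replicate 2 on the TPM scale. A level of 1 TPM or more was reached in both libraries by 8 of 10 members and by 9106 of 43346 genes, and after rescaling over nuclear genes by all 10 and by 12147. In replicate 1 the order of deposited TPM from high to low was Pdk4, Sgk1, Klf9, Tsc22d3, Fkbp5, Cdkn1a, Mt2, Zbtb16, Mt1 and Hif3a. In replicate 2 it was Mt1, Mt2, Sgk1, Pdk4, Tsc22d3, Cdkn1a, Klf9, Fkbp5, Zbtb16 and Hif3a. Mt1 and Mt2 thus went from the lower part of the order to its head, taking 2.23% of the members' summed TPM in replicate 1 and 42.7% in replicate 2. Some neighbours were not separated by the deposited intervals, which belong to the posterior mean TPM and need not hold the TPM itself. In replicate 1 these were Sgk1 and Klf9 (24.3 to 29.9 and 24.1 to 26.1), Mt2 and Zbtb16 (1.32 to 2.87 and 1.22 to 1.57), Zbtb16 and Mt1, and Mt1 and Hif3a (0.42 to 1.47 and 0.50 to 1.21). In replicate 2 these were Mt2, Sgk1 and Pdk4 (73.4 to 89.6, 72.1 to 91.7 and 70.2 to 75.9) and, in overlapping steps, Tsc22d3, Cdkn1a, Klf9 and Fkbp5.

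**Figure D1:**
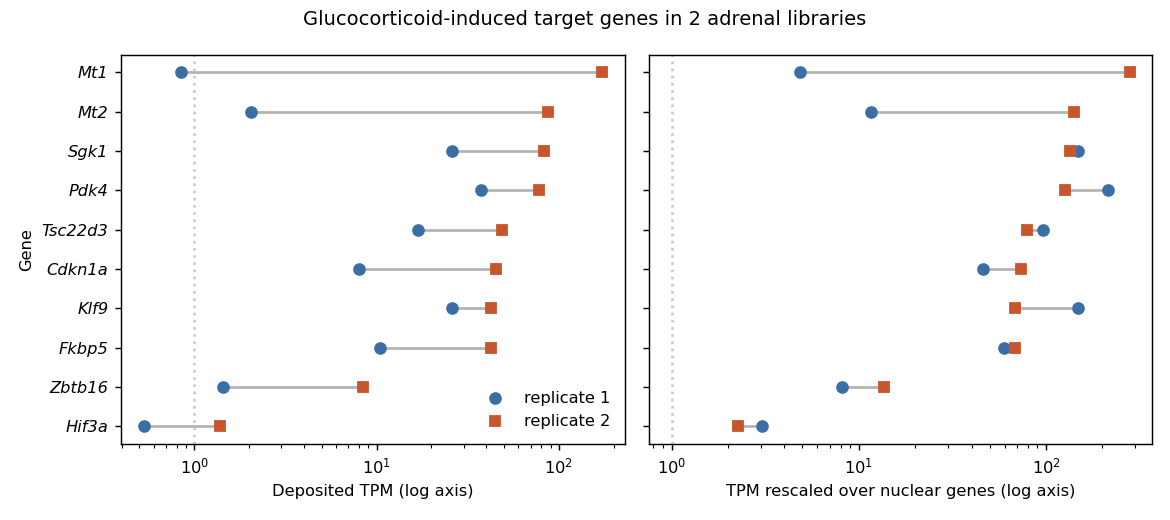
Level of each of the 10 target genes in replicate 1 (circles) and replicate 2 (squares), as deposited TPM on the left and as TPM rescaled over nuclear genes on the right, both on log axes; the dotted line marks a TPM of 1. All 10 genes lie further right in replicate 2 on the left panel, while 5 of 10 do so on the right panel, with Mt1 and Mt2 the furthest apart.

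On deposited TPM every member was higher in replicate 2, by 1.64 to 203 times with a median of 3.60 times. After rescaling over nuclear genes 5 were higher and 5 lower, with a median of 1.02 times. Counts scaled with TMM (a method that assumes most genes do not differ) also gave 5 above and 5 below 1, with a median ratio of 1.19. They are used for the differences that follow, although these libraries did not meet that assumption: most tested genes were past 2-fold by the shares below. At the 2-fold minimum 3 of 10 members were higher in replicate 2, Mt1, Mt2 and Fkbp5, where 36.7% of all 14358 tested genes were. Only Klf9 was lower by that rule, 1 of 10, where 28.1% of all genes were. The members' median log2 ratio was 0.19, beside 0.10 over all tested genes. The share of members called was therefore at or below that of genes in general, and 6 of 10 members stayed within 2-fold. Scaling by total counts moved the median of all genes by 1.14 on the log2 scale, and called 7805 genes higher and 588 lower in place of 5271 and 4033. All 10 members met the minimum of 20 summed counts, Mt1 only through its counts in replicate 2.

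The metallothioneins showed the largest differences on scaled counts, though not after GC correction, when Hif3a was furthest from 0. Mt1 (ENSMUSG00000031765.7, chr8:94179082-94180327, plus strand) had 10 counts and 0.85 TPM in replicate 1 and 752 counts and 172 TPM in replicate 2. Among nuclear genes it ranked 9527 in replicate 1 and 588 in replicate 2. The mean was 86.5 ± 121 TPM (SD, n = 2). Its scaled ratio was 53.1 (95% exact counting interval 30.1 to 117), a log2 ratio of 5.73. Mt2 (ENSMUSG00000031762.6, chr8:94172664-94173568, plus strand) had 25 counts and 2.04 TPM in replicate 1 and 399 counts and 87.4 TPM in replicate 2, a mean of 44.7 ± 60.3 TPM (SD, n = 2) and a ratio of 11.6 (7.89 to 18.5). Mt1 was thus below its neighbour in replicate 1 and above it in replicate 2. The TPM ratio of Mt1 to Mt2 was 0.417 in replicate 1 and 1.97 in replicate 2. The count ratio was 0.400 (exact interval 0.171 to 0.862) and 1.88 (1.67 to 2.13), and these intervals do not overlap. With GC contents of 58.1% and 55.6% over their transcripts, Mt1 and Mt2 were the most GC-rich members, and they were also the shortest, at 540 and 556 bases in the deposited tables. With the GC trend of all genes removed, the log2 ratio of Mt1 went from 5.73 to 1.91, still past 2-fold, and that of Mt2 from 3.54 to 0.91, under it. With the trends of GC content and length both removed they were 1.31 and 0.32.

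The regulators of the hormone's own action were at moderate levels. Fkbp5 encodes a co-chaperone that lowers the receptor's affinity for hormone and closes a negative feedback loop (ENSMUSG00000024222.12, chr17:28399094-28517527, minus strand). It stood at 10.5 TPM in replicate 1 and 42.2 TPM in replicate 2, and its counts were 494 and 1617, a scaled ratio of 2.42 (2.19 to 2.69). Per length the difference was smaller: after rescaling over nuclear genes Fkbp5 was at 59.9 and 68.4 TPM, 1.14 times. Its mean deposited level was 26.3 ± 22.4 TPM (SD, n = 2). The effective length that the deposited tables gave to Fkbp5 was 1422 bases in replicate 1 and 3072 bases in replicate 2, so the call rests on counts and is not made per length. Tsc22d3 encodes GILZ, a leucine zipper protein that carries much of the anti-inflammatory action of glucocorticoids (ENSMUSG00000031431.9, chrX:140539528-140600659, minus strand). It had 903 and 1036 counts, at 16.9 and 48.6 TPM, with a scaled ratio of 0.85 (0.776 to 0.930). Sgk1 encodes a kinase that raises sodium uptake through the epithelial channel (ENSMUSG00000019970.11, chr10:21882184-21999903, plus strand). It had 1902 and 2008 counts, at 25.9 and 82.5 TPM, with a ratio of 0.782 (0.734 to 0.833). Tsc22d3 and Sgk1 were less than 2-fold apart, with GC-corrected log2 ratios of -0.46 and 0.09. Without the length trend they were at -0.72 and -1.09, which puts Sgk1 past 2-fold.

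**Figure D2:**
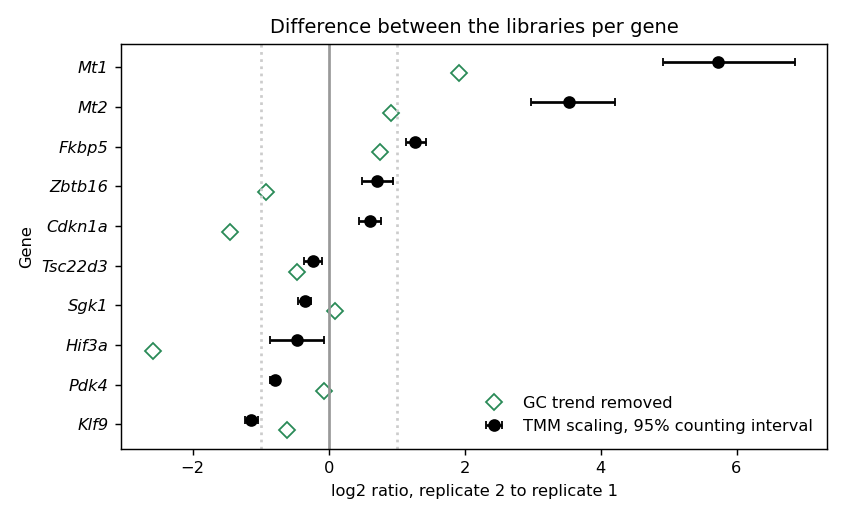
Log2 ratio of replicate 2 to replicate 1 for each target gene, with TMM scaling (filled circles, bars are 95% exact counting intervals) and after removal of the GC trend over all genes (open diamonds); dotted lines mark 2-fold. Mt1, Mt2 and Fkbp5 lie above the upper line and Klf9 below the lower one before correction, and Mt1 alone above and Cdkn1a and Hif3a below after it.

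The transcription factors among the targets differed in level by more than an order of magnitude. Klf9, a zinc finger repressor that also responds to thyroid hormone (ENSMUSG00000033863.1, chr19:23141226-23168134, plus strand), had 2639 and 1622 counts at 25.8 and 42.3 TPM. Its ratio of 0.455 (0.428 to 0.484) made it the lower call, and the log2 ratio went from -1.14 to -0.61 with the GC trend removed and to 0.00 with total-count scaling. Zbtb16, which encodes the factor PLZF (ENSMUSG00000066687.4, chr9:48654297-48836222, minus strand), was low at 1.43 and 8.45 TPM with 233 and 518 counts, a ratio of 1.64 (1.41 to 1.93). Hif3a, a relative of the hypoxia factors that can oppose them (ENSMUSG00000004328.11, chr7:17031507-17062427, minus strand), was the lowest member in both libraries, at 0.53 and 1.39 TPM. Its counts were nearly equal, 110 and 108, for a ratio of 0.727 (0.552 to 0.957). Removal of the GC trend put Hif3a at -2.58 on the log2 scale. That correction used 54.6% GC, the mean over 4 transcripts, whereas Hif3a-202 took every read of the gene and has 51.9%, and with GC weighted by transcript share the value was -1.43. Zbtb16 stood at -0.92 with the first correction and at -1.07 with the second, which puts it past 2-fold.

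The metabolic and cell cycle targets stayed within 2-fold on scaled counts. Pdk4, a kinase that shuts off pyruvate dehydrogenase in fasting (ENSMUSG00000019577.4, chr6:5483351-5496309, minus strand), had the most counts of all members, 4096 and 3194, at 37.4 and 77.7 TPM. Its ratio was 0.577 (0.551 to 0.605), and -0.79 on the log2 scale became -0.07 without the GC trend and -1.06, past 2-fold, without the length trend. Cdkn1a, which encodes the cell cycle inhibitor p21 (ENSMUSG00000023067.9, chr17:29090976-29100727, plus strand), had 460 and 946 counts at 8.04 and 45.2 TPM, a ratio of 1.52 (1.36 to 1.71). Without the GC trend its log2 ratio went from 0.61 to -1.46, so its direction depended on that correction. In all, correction for GC left 1 member higher, Mt1, where 14.9% of all genes were, and 2 lower, Cdkn1a and Hif3a, where 12.9% were. The part of base composition in the remaining differences was not tested.

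**Figure D3:**
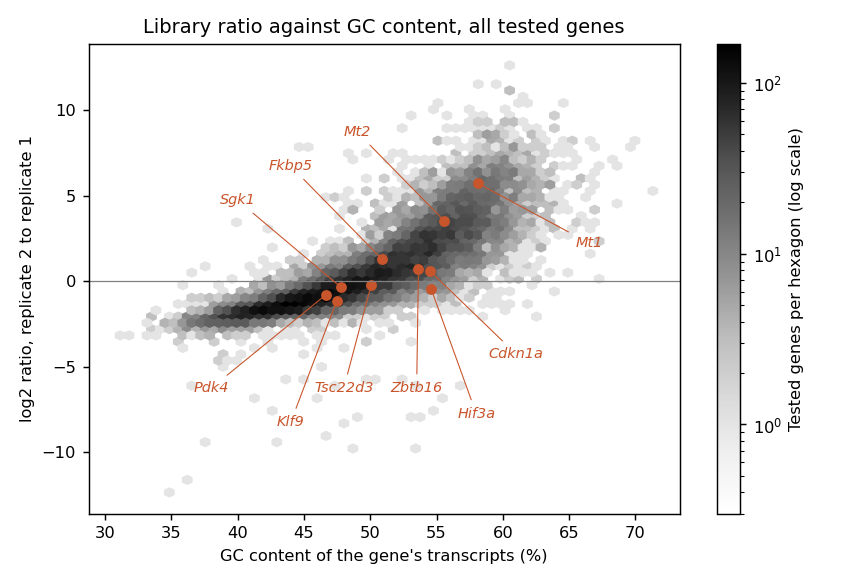
Log2 ratio of replicate 2 to replicate 1 (TMM scaling) against the GC content of the gene's transcripts in percent, for all tested genes with a GC value (hexagons, darker where more genes fall, log scale) and the 10 target genes (points with names). Mt1 and Mt2 lie on the right side of the cloud at 58.1% and 55.6% GC, and Pdk4, Klf9 and Sgk1 further left at 46.7 to 47.8%.

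Transcript shares within genes differed between the libraries for Tsc22d3, Fkbp5 and Sgk1, while in the other members 1 transcript took at least 96.3% of the gene in both. By posterior mean the share of Hif3a-202 was lower, 65.3% and 60.04%. For Tsc22d3 the processed transcript Tsc22d3-202 without an annotated coding frame took 94.5% in replicate 1 and 17.3% in replicate 2. The coding transcript Tsc22d3-201 took 4.59% and 71.1%. These transcripts share 1632 bases and the same 3′ end. The remaining 342 bases of Tsc22d3-201 hold 54.4% GC, and the remaining 158 bases of Tsc22d3-202 hold 62.0%. The gene total of Tsc22d3 thus stayed within 2-fold while the coding share of it did not agree between libraries.

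For Fkbp5 the coding transcript Fkbp5-201, of 3542 bases, took 29.15% in replicate 1 and 85.5% in replicate 2. Fkbp5-205, a 777-base transcript annotated as coding, took 69.85% and 0.71%, with 143 and 2.19 expected counts. Its GC content is 45.4%, against 52.8% for Fkbp5-201. For Sgk1 the transcript Sgk1-213, which starts upstream at chr10:21978672, took 62.4% and 31.6%. The transcript Sgk1-201, whose start lies 965 bases after the printed element, took 28.4% and 42.65%. The bases found in Sgk1-201 alone hold 56.97% GC and those in Sgk1-213 alone 44.05%. Shares of transcripts are estimates by the authors' counting, carry no interval in percent, and have no replicate animal.

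**Figure D4:**
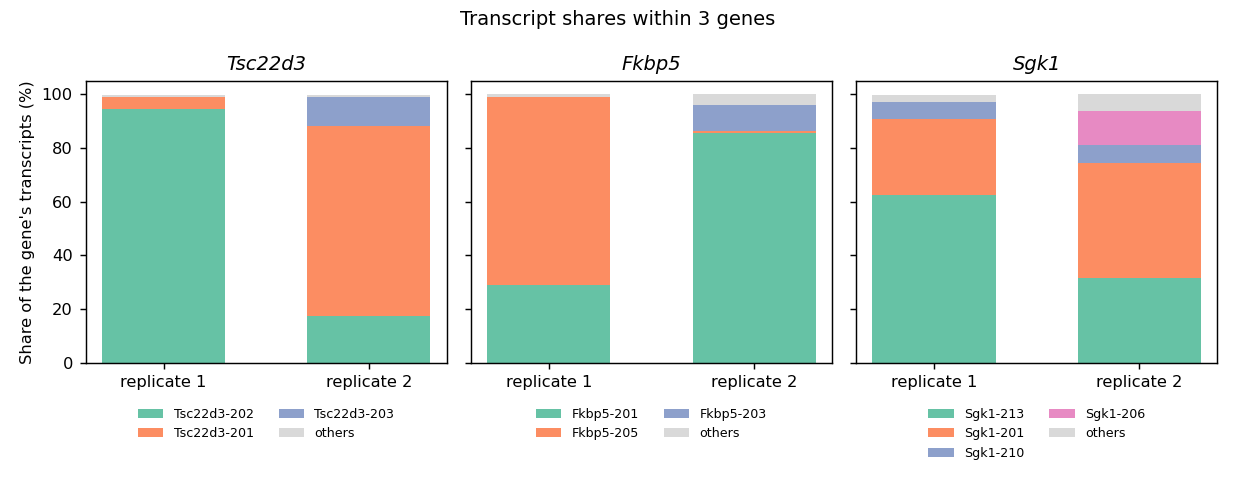
Share of each transcript in its gene, in percent of the gene's transcripts, for Tsc22d3, Fkbp5 and Sgk1 in replicate 1 and replicate 2 (stacked bars; transcripts with a mean share under 4% are pooled as others). The largest segment differs between the libraries in all 3 genes.

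The machinery that delivers the hormone signal was expressed, and its lists were divided in direction (higher and lower again mean at least 2-fold). Of 6 tested genes for receptor and ligand access, 1 was called higher and 1 lower, beside 36.7% and 28.1% of all genes, and the median log2 ratio was -0.77. Nr3c1, which encodes the glucocorticoid receptor itself, stood at 9.43 and 14.45 TPM with 1920 and 938 counts, a ratio of 0.362 that went from -1.47 to -0.32 on the log2 scale without the GC trend. Hsd11b1, the enzyme that regenerates active glucocorticoid, was at 18.4 and 56.9 TPM with a scaled ratio of 0.863. H6pd, which supplies the cofactor of that enzyme, was at 3.11 and 68.6 TPM with a ratio of 6.09. Abcb1b, a pump that can export steroids, was the most abundant at 325 and 590 TPM, with a ratio of 0.505. After GC correction none of these genes was past 2-fold.

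Of 8 receptor chaperones 2 were higher and 2 lower, with a median of 0.48, where 36.7% and 28.1% of all genes were. Hspa8, Hsp90ab1 and Hsp90aa1, the heat shock proteins that fold the receptor, stood at 424, 510 and 579 TPM in replicate 1 and at 1723, 1323 and 374 TPM in replicate 2. Their scaled ratios were 1.31, 1.49 and 0.325. Fkbp4, the relative of Fkbp5 that favours the active receptor, was at 8.37 and 161 TPM with a ratio of 4.98. Ptges3, the co-chaperone p23, was at 102 and 90.1 TPM with a ratio of 0.247, and neither was past 2-fold without the GC trend (-0.29 and -0.54). After that correction 0 chaperones were higher and 1 lower, the co-chaperone Bag1 at -2.96, named after its values were seen. Of 8 coregulators 1 was higher and 1 lower, against the same shares of all genes, with a median of -0.47. Without the GC trend 1 was higher and 0 lower. Ncor1, a corepressor, stood at 46.2 and 95.1 TPM with a scaled ratio of 0.579, and Nrip1 at 12.5 and 17.8 TPM. Nrip1 was the lower call, at -1.36, and -0.45 after correction.

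Among other known targets of the receptor, more were called higher than lower in replicate 2 before GC correction. Of the 18 tested of 20, 9 were higher and 0 lower, beside 36.7% and 28.1% of all genes, and the median log2 ratio was 1.26 at a median GC content of 53.8%. Several of the 9, Irs2 among them, had fewer than 20 counts in replicate 1. They met the minimum only through replicate 2, so their calls give no support for a lean of the list. Without the GC trend 3 were higher, 3 lower, beside 14.9% and 12.9% of all genes, and the median was -0.15. The most abundant were Glul, glutamine synthetase, at 103 and 416 TPM, Rgs2, a regulator of G protein signals, at 105 and 131 TPM, and Pck1, of gluconeogenesis, at 28.7 and 198 TPM, and none of the 3 was past 2-fold. Irs2, an adaptor of the insulin receptor, had 0 and 315 counts, and the lower end of its exact 95% counting interval was 62.9-fold. The members, chosen by name, had a lower median than this list, 0.19 against 1.26, at a median GC content of 52.3%, and the difference of the lists was not tested.

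**Figure D5:**
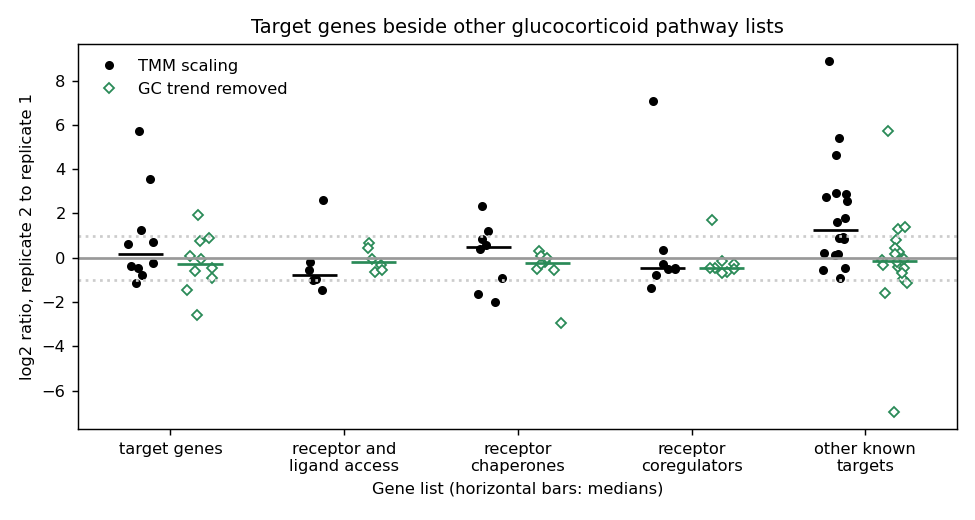
Log2 ratio of replicate 2 to replicate 1 for the tested genes of the target set and 4 pathway lists, with TMM scaling (filled) and after removal of the GC trend (open); horizontal bars are medians and dotted lines mark 2-fold. The medians before correction run from -0.77 for receptor and ligand access to 1.26 for other known targets, and after it all 5 lie between -0.45 and -0.15.

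Genes of the metal response, the other known input to the metallothioneins, were mostly low, and 3 of the 6 on the list met the count minimum. Of these 3, 0 were called higher and 1 lower, beside 36.7% and 28.1% of all genes. Without the GC trend 0 were higher and 0 lower, beside 14.9% and 12.9%. Mtf1, the zinc sensor that binds metal response elements, stood at 1.98 and 11.3 TPM with a ratio of 1.04. The zinc exporter Slc30a1 was at 4.07 and 5.94 TPM with a ratio of 0.407, and the importer Slc39a14 at 2.78 and 17.6 TPM with a ratio of 1.55. The brain-type metallothionein Mt3 had 0 and 18 counts, under the minimum, and was picked out after its values were seen. Mt4 and Slc30a10 had 0 counts in both libraries.

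Markers of other cell types also differed between the libraries. Both libraries come from the same biological sample. After rescaling over nuclear genes adipocyte markers summed to 2661 and 5309 TPM with 3 of 7 higher in replicate 2, skeletal muscle markers to 63.3 and 523 TPM with 5 of 5, macrophage markers to 176 and 610 TPM with 5 of 6, endothelial markers to 554 and 644 TPM with 4 of 6, erythroid markers to 282 and 4823 TPM with 5 of 5 and medulla markers to 2016 and 7347 TPM with 4 of 6, where 36.7% of all genes were higher. The endothelial gene Emcn was lower. Some markers called higher met the count minimum only through replicate 2. Among them were Ckm (3 and 1196 counts), C1qb (17 and 590), Hba-a1 (2 and 3911), Plin1 (19 and 2631) and Pnmt. The numbers called higher in the muscle, macrophage, erythroid, adipocyte and medulla lists therefore rest in part on how such genes entered. With the GC trend removed 5 of 7 adipocyte, 3 of 5 muscle, 4 of 6 macrophage, 0 of 6 endothelial, 3 of 5 erythroid and 3 of 6 medulla markers were higher, where 14.9% of all genes were, and the medulla gene Chgb was lower. None of these lists had a member at 0 in both libraries, and Pnmt of the medulla was at 0 in replicate 1. Kidney markers summed to 0.80 and 0.62 TPM, with Umod, Slc34a1 and Miox at 0 in both, and liver and lymphocyte markers to at most 4.27 TPM. Their part in the levels of the 10 target genes was not tested.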

How the data were processed

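Both libraries came from 1 adrenal gland sample and are technical replicates per the labels, so no test over samples was possible and no p-values were computed. The deposited tables give expected counts (estimated fragments), TPM and FPKM per gene and transcript, which the authors quantified from transcriptome alignments to mm10 with GENCODE M4, per the deposited notes. The counting program, its version and its strand setting are not given in the sources that were used here. The deposited posterior mean TPM and its interval bounds were treated as a score, and the deposited transcript shares are in percent.

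Expected counts were rounded, and the 14358 Ensembl genes whose counts summed to 20 or more were compared. A gene under 20 counts in 1 library could pass only with the counts of the other. Libraries were scaled with TMM (edgeR 4.0.16, R 4.3.3), and log2 ratios of replicate 2 to replicate 1 used a prior count of 0.5. A gene was called at a ratio of at least 2-fold in either direction. Exact Clopper-Pearson 95% intervals cover counting error only. The ratios and intervals were tested on simulated data with known changes in some genes. The simulated libraries held no GC trend and no spread beyond counting error, so they could not test the effect of either here. Nuclear TPM is TPM rescaled without 37 mitochondrial genes and 15 nuclear copies of them (BLAST 2.17.0, 90% identity or more over 50% or more of a transcript). Each gene's GC content was averaged, weighted by length, over a gene's deposited transcripts found in GENCODE M21 (GRCm38), and trends were removed with lowess (span 0.3, statsmodels 0.14.6). Alternatives were DESeq2 1.42.0 size factors, total-count scaling, other filters, folds and prior counts, and removal of GC or length trends. Promoter sequences come from RefSeq (GRCm38.p6).

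The members, gene lists and rules were chosen with earlier results of these data known. Besides all members, the text names in each pathway list the 3 genes with the highest mean nuclear TPM, the called gene with the largest ratio in each direction and genes at 0 counts in both libraries, and for each member the transcripts with a mean share of at least 10%. One gene that this rule names is not reported here.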

Additional observations from a re-analysis of the deposited data

How the results depend on the processing

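The calls of the 10 members rested on scaling and base composition more than on filters. The number higher in replicate 2 was 3, and 5 with total-count scaling, 5 at a 1.5-fold minimum, and 1 with the GC trend removed, with GC weighted by transcript share and with GC and length trends removed (the last pair was added after seeing the data). That number was 4 with nuclear total counts and 2 with TPM rescaled over nuclear genes. The number lower was 1, and 0 with total counts and with nuclear total counts, 2 with the GC trend removed, with GC and length trends removed and at 1.5-fold, and 3 with the length trend removed and with share-weighted GC. Over all genes 5271 were higher and 4033 lower. These became 2131 and 1854 without the GC trend, 1993 and 1776 with share-weighted GC, and 1978 and 1951 without both trends, and total counts left 588 lower. DESeq2 size factors, a prior count of 5, no count filter and a minimum of 100 changed no member count. Nuclear total counts moved the median of all genes by 0.28 on the log2 scale. Of 110 log2 ratios of single members under alternatives, 54 left the counting interval. No called member turned sign, though Klf9 came to -4.5e-05 with total counts. Each of the 6 members not called turned sign under at least 1 alternative. Tsc22d3 went from -0.24 to 0.90 with total counts, and Zbtb16 from 0.72 to -0.92 with the GC trend removed. Leaving out a library gave 8 to 10 members at a TPM of 1, and a Mt1 to Mt2 ratio of 0.417 to 1.97. No paired analysis was possible because both libraries form 1 group.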

Other observations

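Some relatives of the target genes were more abundant than the targets. Tsc22d1, a paralog of Tsc22d3, stood at 211 and 585 TPM in replicates 1 and 2, and Cdkn1c, a relative of Cdkn1a that is imprinted, at 248.6 and 390 TPM, where Cdkn1a had 8.04 and 45.2 TPM. Of 16 relatives 3 were higher in replicate 2 and 7 lower, beside 36.7% and 28.1% of all genes. Without the GC trend the counts were 1 and 4, beside 14.9% and 12.9%. Tsc22d4 had 6 and 862 counts, a log2 ratio of 6.62 that became 2.91. Cdkn1b was at a ratio of 0.290, a log2 ratio of -1.78 that became -0.51. Among 12 partners and substrates 3 were higher and 3 lower, and 1 and 1 without the GC trend, against the same shares of all genes. Pdha1, the subunit that Pdk4 phosphorylates, stood at 83.8 and 149 TPM, Ccnd1 at 21.8 and 75.7 TPM and Mdm2 at 18.2 and 37.4 TPM, while Scnn1a, a subunit of the channel that Sgk1 acts on, had 3 and 26 counts. On scaled counts the ratios of Pdha1, Ccnd1 and Mdm2 were 0.498, 0.964 and 0.604. Pdp1, the phosphatase that reverses the action of Pdk4, was the lowest ratio of that list at 0.356.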
